A study of Mus musculus with 25 samples.

Results

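The genes described here are 9 transcriptional targets of the tumor suppressor p53: Cdkn1a, Mdm2, Sesn1, Sesn2, Zmat3, Trp53inp1, Aen, Btg2 and Ccng1. They were taken by symbol from the 17596 genes of the deposited intron tables, and all 9 were found, with 42 of the listed introns. The tumors came from 4 mouse models of triple-negative breast cancer, transplanted orthotopically into female mice that were 4 to 5 weeks old. The hosts were Balb/c for T11 and 2208L and C57BL/6 for the other 2 models, so strain and model cannot be told apart in most of the model comparisons. Mice were randomized to H3B-8800 or to vehicle and treated daily until collection, and H3B-8800 is a splicing modulator, taken by mouth, whose target is the SF3B complex. Polyadenylated RNA of whole tumors was sequenced in 25 libraries. PyMT-M had 4 libraries with vehicle and 4 with H3B-8800, T11 and 2208L had 3 of each, and AT3 had 3 with vehicle and 2 with H3B-8800. By their labels, T11 and AT3 are nonresponders, while 2208L and PyMT-M are responders. They give no dose and no p53 genotype for any model. Reads were found at each of the 9 listed junctions of Trp53, the gene of p53, in each library (39 to 383 reads per junction). Such reads of whole tumors do not tell the genotype.

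p53 is a transcription factor that is held at a low level by the ubiquitin ligase Mdm2 and accumulates when cells are stressed, for example by DNA damage. It then binds sites made of 2 adjoining half-sites and raises the transcription of genes that stop the cell cycle, limit growth signalling or promote cell death. Mdm2 is itself such a target, which closes a feedback loop, and Trp53inp1 and Ccng1 encode proteins that act back on p53 as well. The pathway is inactivated in many breast tumors, and the levels of its targets are commonly used as a readout of it.

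Each deposited file lists, for every intron, the reads lying in it and a further count, read here as the reads overlapping it. That count was taken to include reads spliced across the intron, which no header or label states. A gene's level is the overlapping minus the intronic reads, summed over its introns and given as CPM (counts scaled to a common library total) of such spliced reads after scaling with TMM. Retention is given as the share, in percent, of the reads overlapping an intron that lie in it, with no adjustment for intron length. Libraries held 9820825 to 19700955 spliced reads and 858362 to 5684308 intronic reads. In T11 the intronic reads ran against the treatment labels: relative to the spliced reads of their gene, 19.6% of introns were lower under the H3B-8800 label and 0.763% higher. As a share of all overlapping reads they made up 9.33% to 11.96% in the libraries labelled H3B-8800 and 11.5% to 18.1% in those labelled vehicle, which overlap. T11 libraries are therefore called by their labels, and no direction of a drug effect is read from them. Shares of intronic reads overlapped between treatments in PyMT-M as well, at 10.47% to 20% with vehicle and 17.84% to 27.8% with H3B-8800. So they did in AT3, at 9.63% to 15.92% and 14.18% to 20.36%. They did not in 2208L, at 7.9% to 10.43% and 13.34% to 14.94%. Of the 25 libraries, 6 had a mean log2(CPM + 1) of at least 3 for markers of skeletal muscle or B cells: vehicle replicate 3 and H3B-8800 replicate 2 of T11, H3B-8800 replicates 1 and 2 of PyMT-M, vehicle replicate 2 of AT3 and vehicle replicate 1 of 2208L. Adipocyte markers, which did not enter this choice, reached that level in H3B-8800 replicate 4 of PyMT-M (4.131). They also did so in H3B-8800 replicate 1 of AT3 (3.202) and H3B-8800 replicate 2 of T11 (3.723). Those PyMT-M and AT3 libraries stayed in when the 6 were left out. Epithelial markers (Epcam, Cdh1, Krt5, Krt8, Krt14, Krt18 and Krt19) summed to 3069 to 6500 CPM in PyMT-M and 2208L, but to 162 to 509 CPM in AT3 and 101 to 273 CPM in T11, where up to 3 and 2 of the 7 were at 0. In such bulk RNA, fewer cells of a type and less RNA per cell cannot be told apart.

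The Cdkn1a and Ccng1 promoters are printed because they hold an adjoining pair of p53 half-sites, and because the results below open with Cdkn1a. RefSeq windows (GRCm38.p6, 250 bases before to 50 after a transcript start) were at hand for 7 of the 9 genes, 10 windows in all, and Zmat3 and Trp53inp1 were not among them. Each window was searched on both strands for the p53 half-site consensus, a palindrome of 10 bases, and for an adjoining pair of half-sites with at most 1 mismatch. The search was chosen after the files had been seen. Capitals mark the matches, 5′ to 3′ on the strand of the gene.
Cdkn1a, chr17:29090729-29091028, plus strand: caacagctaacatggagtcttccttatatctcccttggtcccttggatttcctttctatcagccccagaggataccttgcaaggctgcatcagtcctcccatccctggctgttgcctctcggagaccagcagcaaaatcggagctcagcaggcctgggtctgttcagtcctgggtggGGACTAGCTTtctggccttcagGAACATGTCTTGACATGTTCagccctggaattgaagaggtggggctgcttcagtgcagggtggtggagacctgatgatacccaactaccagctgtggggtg
Ccng1, chr11:40755237-40755536, minus strand: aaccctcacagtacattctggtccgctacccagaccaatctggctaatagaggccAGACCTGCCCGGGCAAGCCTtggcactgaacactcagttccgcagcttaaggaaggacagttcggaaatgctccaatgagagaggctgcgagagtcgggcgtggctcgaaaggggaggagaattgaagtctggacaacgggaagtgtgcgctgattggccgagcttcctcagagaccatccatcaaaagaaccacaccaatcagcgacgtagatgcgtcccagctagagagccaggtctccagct
The Cdkn1a window held an adjoining pair, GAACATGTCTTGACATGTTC, that began 51 bases before this start and 2841 bases before the other annotated start of the gene, and a further half-site, GGACTAGCTT, at 73 bases. The Ccng1 pair, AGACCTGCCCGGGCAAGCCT, began 195 bases before the start. Single half-sites were found for Mdm2 (GAACTTGCCT, 186 bases before the start), Sesn1 (AAGCTTGTTT, 173 bases before 1 of its 2 starts) and Aen (GGGCTTGTCC, the same site in both of its windows, which overlap). No match was found in the windows of Btg2 and Sesn2. A half-site was present in 6 of the 10 windows and in 8.36% of the 32851 windows of the table, and an adjoining pair in 2 of the 10 and in 0.0883% of all. The 6 windows belong to 5 of the 7 genes, since the Aen site is counted in each of its windows. A match describes the letters only, and no binding was measured.

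Tumors treated with vehicle differed in the level of these genes mainly between PyMT-M and the other models. Cdkn1a, which encodes the cyclin-dependent kinase inhibitor p21, had 39.8, 82.7, 99.2 and 50.6 CPM in the 4 PyMT-M vehicle libraries. It had 4.28, 4.38 and 6.31 CPM in AT3, 2.52, 3.78 and 1.31 CPM in 2208L, and 3.43, 5.05 and 4.89 CPM in the T11 libraries labelled vehicle. Every PyMT-M library was above all others. The PyMT-M mean of 68.1 ± 27.6 (SD, n = 4) was 13.6-fold that of AT3, a log2 difference of 3.77 (SE 0.40, adjusted p = 5.82e-08, edgeR quasi-likelihood test, Benjamini-Hochberg over 13001 genes). The log2 difference was 4.73 (SE 0.43, adjusted p = 2.57e-08) over 2208L and 3.92 (SE 0.40, adjusted p = 3.48e-08) over T11. The 3 comparisons share the PyMT-M vehicle libraries.

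**Figure D1:**
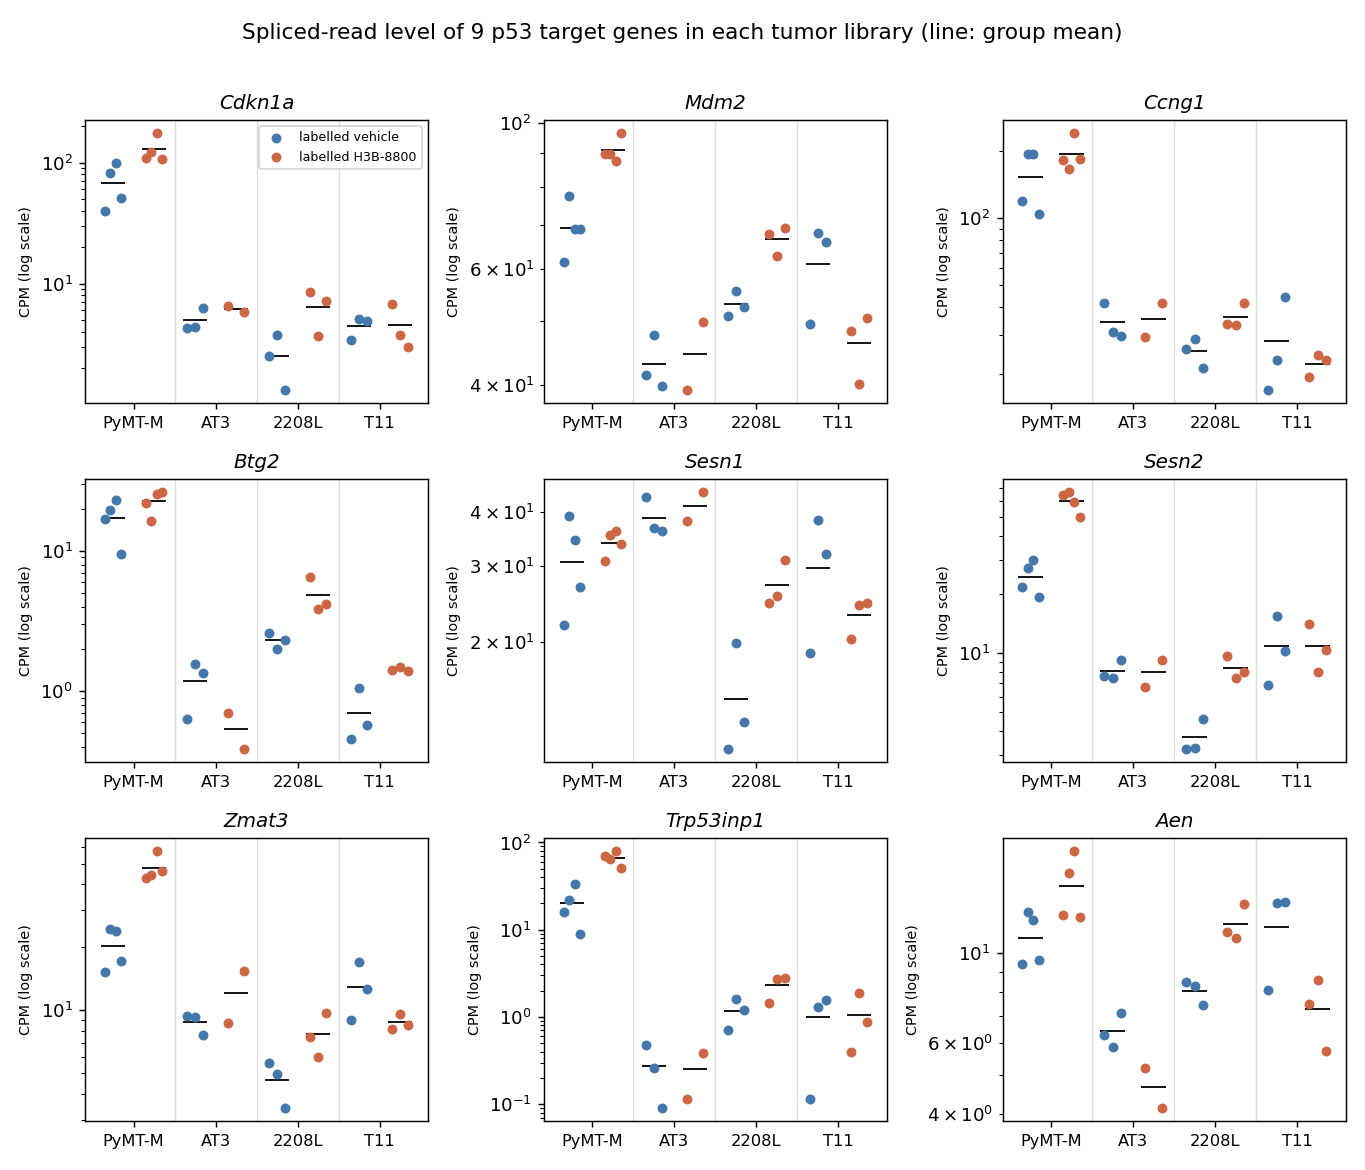
Spliced-read level (CPM, vertical log axis) of each of the 9 genes in the 25 libraries, by model and treatment label, where a point is a library and a line the group mean. The 8 PyMT-M libraries of Cdkn1a lie between 39.8 and 176 CPM, above the 17 others at 1.31 to 8.44 CPM, while the Sesn1 libraries of PyMT-M, at 21.9 to 39.2 CPM, overlap those of each other model.

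Of the 9 genes, 8 were higher in PyMT-M than in AT3 vehicle tumors, which share the strain, beside 32.1% of all genes tested. None was lower, and the median log2 difference of the 9 was 1.6, beside 0.0762 over all genes. Over 2208L, 8 of 9 were higher beside 23.5% of all genes, with medians of 2.6 and 0. Over T11, 6 of 9 were higher beside 32.1% of all genes, with medians of 1.17 and 0.00269.

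Btg2 showed the same split between PyMT-M and the other models. It encodes an antiproliferative partner of the CCR4-NOT deadenylase, and its vehicle level was 16.9, 19.5, 23.0 and 9.51 CPM in PyMT-M, 0.635, 1.58 and 1.35 CPM in AT3 and 2.62, 2.02 and 2.31 CPM in 2208L. In T11 it was 0.458, 1.06 and 0.576 CPM, and the PyMT-M libraries again lay above all others. The log2 difference of Btg2 was 3.86 over AT3 (adjusted p = 1.31e-08), 2.89 over 2208L (adjusted p = 1.01e-06) and 4.56 over T11 (adjusted p = 2.32e-09, edgeR). Btg2 was also higher in 2208L than in T11, by 1.66 (adjusted p = 0.00159), where it was 1 of 9 genes that were higher (23.1% of all genes) and 3 were lower (22.5%).

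Ccng1, the gene of cyclin G1, which recruits a phosphatase to Mdm2, had 120, 194, 195 and 105 CPM in PyMT-M vehicle tumors. It had 29.6 to 41.7 CPM in AT3, 21.2 to 28.6 CPM in 2208L and 16.8 to 44.3 CPM in T11, with no overlap with PyMT-M. The log2 differences were 2.17 (adjusted p = 1.23e-06), 2.60 (adjusted p = 4.59e-07) and 2.45 (adjusted p = 2.68e-07). Trp53inp1 encodes a stress-induced protein that promotes p53 activity and autophagy, and it was at 16.0, 21.8, 33.6 and 8.99 CPM in PyMT-M. In AT3 it rested on 1 to 6 reads per library (0.0901 to 0.476 CPM), in 2208L on 7 to 19 reads and in T11 on 1 to 22 reads. Its log2 difference over AT3 was 6.11 (SE 0.68, adjusted p = 1.23e-07), and the low counts leave its size uncertain.

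The sestrins, which restrain the growth kinase mTORC1, differed from each other. Sesn2 was at 19.5 to 29.9 CPM in PyMT-M, 7.44 to 9.19 CPM in AT3, 3.22 to 4.63 CPM in 2208L and 6.87 to 15.5 CPM in T11. It was higher in PyMT-M by 1.60 over AT3 (adjusted p = 1.39e-05), by 2.73 over 2208L (adjusted p = 1.02e-07) and by 1.17 over T11 (adjusted p = 0.000339). Sesn1 was at 21.9, 39.2, 34.5 and 26.9 CPM in PyMT-M and at 43.5, 36.8 and 36.2 CPM in AT3, a log2 difference of -0.34 that did not pass (adjusted p = 0.194). In 2208L, Sesn1 stood at 11.3, 19.9 and 13.1 CPM, below PyMT-M by 1.05 (adjusted p = 0.000934), below AT3 by 1.39 (adjusted p = 9.04e-05) and below T11 by 1.01 (adjusted p = 0.00189), the last with overlapping libraries.

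Zmat3, the gene of a zinc finger protein that binds RNA, was at 15.3 to 24.4 CPM in PyMT-M, 7.66 to 9.44 CPM in AT3, 3.42 to 5.64 CPM in 2208L and 9.04 to 17.0 CPM in T11. It was higher in PyMT-M than in AT3 by 1.20 (adjusted p = 0.000339) and than in 2208L by 2.11 (adjusted p = 2.19e-06). The difference of 0.65 over T11 (adjusted p = 0.0275) did not pass without PyMT-M vehicle replicate 2 or 3 or T11 replicate 1 or 3 (adjusted p = 0.0678 to 0.134). In AT3, Sesn1, Sesn2 (1.12, adjusted p = 0.00227) and Zmat3 (0.91, adjusted p = 0.0101) were higher than in 2208L, 3 of 9 beside 20.7% of all genes. Trp53inp1 (-2.03, adjusted p = 0.0372) and Btg2 (-0.96, adjusted p = 0.0426) were lower there, 2 of 9 beside 24.5%. Trp53inp1 did not pass without replicate 2 or 3 of either model (adjusted p = 0.0685 to 0.138), nor Btg2 without AT3 replicate 1 or 3 or any 2208L replicate (adjusted p = 0.0591 to 0.230).

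Mdm2 and Aen varied least. Mdm2 had 61.5, 77.5, 69.1 and 69.1 CPM in PyMT-M, 41.5, 47.6 and 39.9 CPM in AT3 and 50.9, 55.7 and 52.6 CPM in 2208L. The PyMT-M libraries did not overlap those of AT3 or 2208L, with log2 differences of 0.69 (adjusted p = 0.000123) and 0.39 (adjusted p = 0.0199), and they overlapped the T11 values of 49.6, 68.0 and 65.9 CPM. The difference from 2208L did not pass without PyMT-M replicate 2 or 2208L replicate 1 or 3 (adjusted p = 0.0543 to 0.0870). Aen encodes a nuclease that enhances apoptosis, and it was at 9.38 to 12.7 CPM in PyMT-M and 5.86 to 7.12 CPM in AT3 (0.77, adjusted p = 0.0038). Mdm2 (-0.51, adjusted p = 0.00609) and Aen (-0.86, adjusted p = 0.00455) were lower in AT3 than in T11, 2 of 9 beside 22.4% of all genes. Without the 6 libraries neither was called (adjusted p = 0.0702 and 0.132), and without T11 vehicle replicate 1, 5 of the 9 were lower in AT3.

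To compare levels between genes, CPM was divided by the number of listed introns, since each junction adds reads. Per intron, mean vehicle levels in PyMT-M ran from 68.1 CPM for Cdkn1a, 30.7 for Ccng1, 17.2 for Btg2 and 10.04 for Trp53inp1 to 7.70 for Mdm2, 5.46 for Aen, 4.05 for Zmat3, 3.83 for Sesn1 and 2.73 for Sesn2. In AT3 the order began with Ccng1 at 6.81 CPM, Cdkn1a at 4.99, Sesn1 at 4.85 and Mdm2 at 4.78. Mdm2 led in 2208L with 5.89 CPM and in T11 with 6.79 CPM. Cdkn1a thus ranked above the other 8 genes per intron in PyMT-M and below Mdm2 in the models of the Balb/c strain.

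In PyMT-M tumors, H3B-8800 was accompanied by higher levels of Cdkn1a, Mdm2, Sesn2, Zmat3 and Trp53inp1. These are 5 of the 9 genes, beside 10.2% of all genes tested, and none of the 9 was lower, beside 14.6%. The median log2 change of the 9 was 0.419, beside 0.0219 over all genes. For each of the 5, every H3B-8800 library lay above every vehicle library, and no share of all genes with such a gap is given beside this.

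Cdkn1a had 110, 122, 176 and 108 CPM with H3B-8800 against 39.8, 82.7, 99.2 and 50.6 CPM with vehicle. The means, 129 ± 32.0 and 68.1 ± 27.6 (SD, n = 4 each), differed 1.90-fold, a log2 change of 0.92 (SE 0.31, adjusted p = 0.0334, edgeR). The gap between the groups was 108 against 99.2 CPM. The call was lost without H3B-8800 replicate 2 or 3 or vehicle replicate 1 or 4 (log2 change 0.74 to 0.95, adjusted p = 0.0529 to 0.124), and with overlapping reads in place of spliced reads (0.62, adjusted p = 0.142).

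Mdm2 rose less than Cdkn1a in log2 terms, and with a smaller spread. Its level was 89.6, 89.7, 87.5 and 96.6 CPM with H3B-8800 and 61.5 to 77.5 CPM with vehicle. The change was 1.31-fold, a log2 of 0.39 (SE 0.12, adjusted p = 0.0210, edgeR), and 4 of 17 alternatives lost the call. It was 0.36 (adjusted p = 0.0504) without H3B-8800 replicate 4, 0.45 (adjusted p = 0.0679) without the 6 libraries, 0.27 (adjusted p = 0.0699) with overlapping reads and 0.31 (adjusted p = 0.248) with the library size behind the authors' RPKM values. The difference between Cdkn1a and Mdm2 itself was not tested.

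Sesn2 had 64.4, 67.0, 59.7 and 49.97 CPM with H3B-8800 against 21.7, 27.3, 29.9 and 19.5 CPM with vehicle. The change was 2.45-fold, a log2 of 1.29 (SE 0.22, adjusted p = 0.00032, edgeR). Its relative Sesn1 did not pass, with 30.8, 35.4, 36.2 and 33.7 CPM against 21.9 to 39.2 CPM and a log2 change of 0.15 (95% interval -0.28 to 0.58, adjusted p = 0.629). The H3B-8800 libraries of Sesn1 lay within the range of the vehicle libraries.

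Zmat3 had 42.6, 44.4, 58.0 and 46.2 CPM with H3B-8800 and 15.3, 24.4, 24.0 and 17.3 CPM with vehicle, a 2.36-fold change (log2 1.24, SE 0.23, adjusted p = 0.000541). Trp53inp1 had 70.3, 64.2, 80.8 and 51.2 CPM against 16.0, 21.8, 33.6 and 8.99 CPM, a 3.31-fold change (log2 1.73, SE 0.42, adjusted p = 0.00522). That was the widest change among the 9 genes in this model. The calls of Sesn2, Zmat3 and Trp53inp1 held in all 17 alternatives run, among them the 6 libraries left out, when 3 of the 9 genes were called.

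Ccng1, Btg2 and Aen did not pass in PyMT-M, though their mean was higher with H3B-8800. Ccng1 was at 184, 167, 242 and 185 CPM against 105 to 195 CPM (log2 0.34, 95% interval -0.17 to 0.85, adjusted p = 0.325). Btg2 was at 22.1, 16.4, 25.4 and 26.5 CPM against 9.51 to 23.0 CPM (log2 0.39, 95% interval -0.18 to 0.96, adjusted p = 0.316). Aen was at 12.4, 15.8, 17.9 and 12.3 CPM against 9.38 to 12.7 CPM (log2 0.42, 95% interval 0.02 to 0.82, adjusted p = 0.113). With overlapping reads as the gene's count, which adds its intronic reads, the Aen change was 1.45 (adjusted p = 2.05e-05).

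Trp53 moved the other way in PyMT-M, from 90.6, 99.8, 79.1 and 105 CPM with vehicle to 67.4, 62.4, 53.1 and 74.5 CPM with H3B-8800. The log2 change was -0.54 (SE 0.14, adjusted p = 0.00774, edgeR), with no overlap between the groups. This level counts spliced reads only, and the mean fell more at some junctions than at others. Mean junction levels went from 8.63 ± 1.24 to 7.49 ± 1.455 CPM at intron 1 (SD, n = 4 each). They went from 9.27 ± 1.29 to 7.53 ± 1.18 CPM at intron 2 and from 9.07 ± 2.04 to 5.24 ± 0.67 CPM at intron 7. At intron 9 they went from 10.1 ± 4.18 to 5.39 ± 0.42 CPM. Only these of the 9 listed junctions are given, and junctions were not tested against each other. Intron 7 held 6.85% to 16.1% of its reads with vehicle and 54.6% to 71.6% with H3B-8800. The part of retention in the fall of Trp53 was not tested. Mdm4, which encodes a relative of Mdm2 that inhibits p53, was at 12.1 to 16.6 CPM with H3B-8800 and 21.6 to 27.6 CPM with vehicle, and its log2 change of -0.71 did not pass (adjusted p = 0.0736). Macrophage markers moved with the treatment as well: 4 of 5 (of Adgre1, Csf1r, Cd68, C1qa and Mrc1) were higher, none of the 5 was at 0, and their summed level was 353 to 566 CPM with H3B-8800 and 79.1 to 247 CPM with vehicle. Of the adipocyte markers (Adipoq, Plin1, Cidec, Lep and Fabp4), 2 of 4 tested were higher. Their summed level was 14.62 to 254.8 CPM with H3B-8800 and 17.93 to 53.61 CPM with vehicle, which overlap. The part of the macrophage and adipocyte markers in the changes of these genes was not tested.

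In 2208L tumors, 3 of the 9 genes were higher with H3B-8800, beside 4.67% of all genes tested: Sesn1, Sesn2 and Cdkn1a. The median log2 change of the 9 was 0.876, beside 0 over all genes, and the fitted change was positive for each of the 9. Sesn1 had 24.6, 25.6 and 31.1 CPM with H3B-8800 against 11.3, 19.9 and 13.1 CPM with vehicle (log2 0.88, SE 0.24, adjusted p = 0.0276). Sesn2 had 9.70, 7.48 and 7.97 CPM against 3.22, 3.28 and 4.63 CPM (log2 1.18, SE 0.28, adjusted p = 0.0114). Neither gene's groups overlapped.

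Cdkn1a was at 8.44, 3.70 and 7.23 CPM with H3B-8800 and 2.52, 3.78 and 1.31 CPM with vehicle in 2208L, on 13 to 108 reads per library. H3B-8800 replicate 2 lay below the highest vehicle library. The log2 change was 1.33 (SE 0.41, adjusted p = 0.0440, edgeR), and 9 of 15 alternatives lost the call (log2 1.02 to 1.38, adjusted p = 0.0518 to 0.195). No call of the 3 genes remained without 2208L H3B-8800 replicate 1 or vehicle replicate 1, and 1 remained without H3B-8800 replicate 3 or vehicle replicate 3. Without the 6 libraries the log2 changes were 1.11 for Sesn2 (adjusted p = 0.0853), 0.73 for Sesn1 (adjusted p = 0.198) and 1.34 for Cdkn1a (adjusted p = 0.183).

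The other 6 genes did not pass in 2208L. Mdm2 was at 67.9, 62.9 and 69.2 CPM against 50.9, 55.7 and 52.6 CPM (log2 0.33, adjusted p = 0.130). Btg2 was at 6.50, 3.87 and 4.22 CPM against 2.02 to 2.62 CPM (log2 1.07, adjusted p = 0.0544), and Zmat3 at 7.47, 5.98 and 9.71 CPM against 3.42 to 5.64 CPM (log2 0.73, adjusted p = 0.0950). Aen was at 10.9 to 13.3 CPM against 7.44 to 8.46 CPM (log2 0.55, adjusted p = 0.119), and Ccng1 at 33.0 to 41.8 CPM against 21.2 to 28.6 CPM (log2 0.51, adjusted p = 0.264). Trp53inp1 was at 1.46, 2.73 and 2.81 CPM against 0.705, 1.60 and 1.21 CPM (log2 0.99, adjusted p = 0.298).

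Trp53 in 2208L was at 86.7, 87.1 and 85.0 CPM with H3B-8800 and 108, 114 and 128 CPM with vehicle, without overlap, and its log2 change of -0.43 did not pass (adjusted p = 0.0862). Mdm4 was at 18.2 to 19.7 CPM against 7.56 to 13.3 CPM (log2 0.93, adjusted p = 0.0815). Macrophage markers were higher here too, 4 of 5, and summed to 990 to 1114 CPM with H3B-8800 and 122 to 553 CPM with vehicle, with none at 0. Their part in the changes was not tested.

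In AT3 tumors none of the 9 genes was called with edgeR, beside 0.3% of all genes tested. At an unadjusted p under 0.05 there was 1, Btg2, and DESeq2 called 0. Btg2 was at 0.695 and 0.385 CPM with H3B-8800 and 0.635, 1.58 and 1.35 CPM with vehicle (log2 -1.14, adjusted p = 0.348), on 4 to 18 reads per library. Cdkn1a was at 6.49 and 5.78 CPM against 4.28, 4.38 and 6.31 CPM (log2 0.30, 95% interval -0.61 to 1.21), and Mdm2 at 39.3 and 49.97 CPM against 41.5, 47.6 and 39.9 CPM (log2 0.05, 95% interval -0.27 to 0.38). The intervals of Cdkn1a and Mdm2 in AT3 include 0 and, for Cdkn1a, the change of 0.92 fitted in PyMT-M. Sesn2, at 6.72 and 9.24 CPM against 7.44 to 9.19 CPM, had a log2 change of -0.01 (95% interval -0.64 to 0.61). Aen was lower without overlap, at 5.21 and 4.14 CPM against 5.86 to 7.12 CPM, and did not pass (log2 -0.46, adjusted p = 0.484). The log2 changes of Zmat3 (0.46, adjusted p = 0.549), Sesn1 (0.10), Ccng1 (0.06) and Trp53inp1 (-0.11, on 1 to 6 reads per library) did not pass either, nor did that of Trp53 (0.10).

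In T11, 1 of the 9 genes differed between the labels, beside 5.07% of all genes that were lower under the H3B-8800 label. Aen was at 7.47, 8.60 and 5.72 CPM in libraries labelled H3B-8800 and 8.13, 13.3 and 13.4 CPM in those labelled vehicle, which overlap. Its log2 difference was -0.68 (SE 0.22, adjusted p = 0.0499, edgeR), and 11 of 15 alternatives lost the call (adjusted p = 0.0554 to 0.373), among them the omission of either vehicle replicate 2 or 3 or any of the 3 libraries labelled H3B-8800. Mdm2 was at 48.3, 40.2 and 50.6 CPM against 49.6, 68.0 and 65.9 CPM (log2 -0.40, adjusted p = 0.0639), and passed without vehicle replicate 1 (-0.53, adjusted p = 0.0127). Cdkn1a was at 6.76, 3.77 and 3.00 CPM against 3.43, 5.05 and 4.89 CPM, a log2 difference of -0.02. Btg2 was at 1.38 to 1.48 CPM against 0.458 to 1.06 CPM, without overlap, and did not pass (log2 0.97, adjusted p = 0.114), on 4 to 30 reads per library. Trp53 was higher under the H3B-8800 label, at 112, 140 and 115 CPM against 65.7, 73.2 and 104 CPM (log2 0.60, adjusted p = 0.0199). T cell markers (4 of 5) and B cell markers (3 of 5) were higher under that label. T cell markers summed to 3.69, 70.4 and 7.19 CPM against 0.458 to 0.935 CPM. B cell markers summed to 1.1, 127 and 0.922 CPM against 0.288 to 0.624 CPM. Replicate 2 under that label was thus far above the rest for both lists. In the other T11 libraries, up to 3 of the 5 B cell markers were at 0. The part of these markers was not tested.

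**Figure D2:**
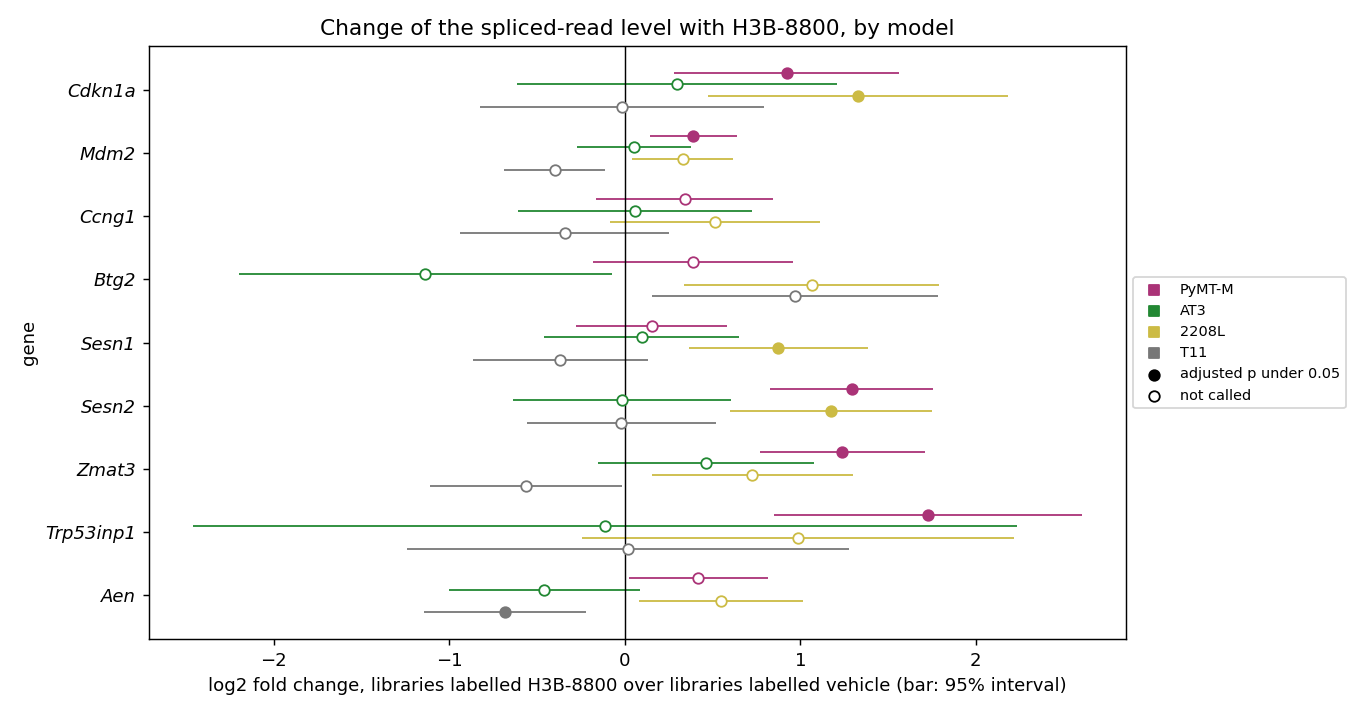
Fitted log2 change of each gene under the H3B-8800 label over the vehicle label (horizontal axis, with bars for the 95% interval) in the 4 models, with filled points where the adjusted p is under 0.05. The 5 filled points of PyMT-M and the 3 of 2208L lie right of 0, AT3 has none, and the 1 of T11, Aen at -0.68, lies left of 0.

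Averaged over PyMT-M, AT3 and 2208L, 4 of the 9 genes were higher with H3B-8800, beside 10.7% of all genes. They were Cdkn1a (log2 0.85, SE 0.22, adjusted p = 0.00875), Mdm2 (0.26, SE 0.08, adjusted p = 0.0226), Sesn2 (0.82, SE 0.15, adjusted p = 0.000635) and Zmat3 (0.81, SE 0.15, adjusted p = 0.000705). Sesn1 missed the threshold (0.37, adjusted p = 0.0545). The mean rests on the changes given above for each model and is not separate evidence. Sesn2 and Zmat3 were called in all 27 alternatives of this mean, Cdkn1a in 26 and Mdm2 in 22, and without the 6 libraries Sesn2 and Zmat3 were the 2 called.

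The change was also compared between models, since a call in PyMT-M or 2208L and none in AT3 does not show that the changes differ. For PyMT-M minus 2208L, edgeR called 0 of the 9 genes (1.92% of all genes), with 1 at an unadjusted p under 0.05 and 0 by DESeq2. That gene was Sesn1, with a difference of -0.72 (95% interval -1.39 to -0.06, adjusted p = 0.251). For PyMT-M minus AT3, 0 were called (1.1% of all genes), with 3 at an unadjusted p under 0.05 and 1 by DESeq2. The 3 were Sesn2 (1.31, adjusted p = 0.0865 with edgeR and 0.0177 with DESeq2), Btg2 (1.53, adjusted p = 0.201) and Aen (0.88, adjusted p = 0.191). For AT3 minus 2208L, 0 were called (0.0154% of all genes), with 4 at an unadjusted p under 0.05 and 0 by DESeq2, among them Btg2 (-2.20, adjusted p = 0.149) and Sesn2 (-1.19, adjusted p = 0.214). The shares in brackets are at the adjusted threshold. No share of all genes or introns at an unadjusted p under 0.05 is given here or elsewhere, so counts at that p cannot be set beside one. The Cdkn1a change differed by 0.62 between PyMT-M and AT3, with a 95% interval of -0.50 to 1.75. Under the T11 labels, the change was lower than in PyMT-M for 4 of the 9 genes (12.1% of all genes) and than in 2208L for 5 (6.88%), and higher than in AT3 for 1 (7.71%).

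Across the 8 groups, the mean Cdkn1a level ran from 129 CPM in PyMT-M with H3B-8800 and 68.1 in PyMT-M with vehicle to 6.46 in 2208L with H3B-8800, 6.13 and 4.99 in AT3 with H3B-8800 and vehicle, 4.51 and 4.46 in T11 labelled H3B-8800 and vehicle, and 2.54 in 2208L with vehicle. Below PyMT-M, each group overlapped the next in this order. For Mdm2 the order was PyMT-M with H3B-8800 at 90.9 CPM, PyMT-M with vehicle at 69.3, 2208L with H3B-8800 at 66.7, T11 labelled vehicle at 61.2, 2208L with vehicle at 53.04, T11 labelled H3B-8800 at 46.4, AT3 with H3B-8800 at 44.6 and AT3 with vehicle at 43.0. Neighbours in the Mdm2 order overlapped, apart from the first pair and 2208L with vehicle against T11 labelled H3B-8800.

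Other p53 targets, from a list of 39 genes of which 36 were tested, did not move in 1 direction. In PyMT-M, 6 of the 36 were higher with H3B-8800 and 7 lower, 16.7% and 19.4% beside 10.2% and 14.6% of all genes, and their median log2 change was -0.0992, beside 0.0219 over all genes. Plk3, which encodes a stress-activated kinase, rose from 9.69 ± 1.35 to 20.4 ± 3.14 CPM (SD, n = 4 each, log2 1.07, adjusted p = 0.00124). Ei24, the gene of a membrane protein linked to autophagy, rose from 268 ± 56.3 to 422 ± 49.8 CPM (log2 0.66, adjusted p = 0.000911). Among those that fell were Xpc, which recognises damaged DNA, from 24.8 ± 4.40 to 12.1 ± 3.17 CPM (log2 -1.04, adjusted p = 0.000456), and Ercc5, an endonuclease gene of excision repair, from 61.5 ± 11.7 to 33.3 ± 3.73 CPM (log2 -0.89, adjusted p = 0.000577).

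In 2208L, 2 of the 36 targets were higher and 1 lower, 5.56% and 2.78% beside 4.67% and 5.67% of all genes, with a median of 0.0578 beside 0. DESeq2 called 7 of them higher and 1 lower. Those higher were Eda2r, a receptor of the tumor necrosis factor family, from 0.202 ± 0.267 to 1.28 ± 0.205 CPM (SD, n = 3 each, log2 2.53, adjusted p = 0.0164), and Cd80, a costimulatory ligand of antigen-presenting cells, from 1.20 ± 0.778 to 3.95 ± 1.89 CPM (log2 1.70, adjusted p = 0.0423). Gtse1, which encodes a protein of the G2 and S phases, fell from 22.1 ± 2.68 to 13.6 ± 1.36 CPM (log2 -0.70, adjusted p = 0.0443). In AT3, edgeR called 0 of the 36 targets, beside 0.3% of all genes, with 7 at an unadjusted p under 0.05 and 0 by DESeq2. In T11, Rrm2b was higher (log2 1.54, adjusted p = 0.00979) and Ppm1d lower (log2 -0.67, adjusted p = 0.0132) under the H3B-8800 label, and these were the 2 calls among the 36, beside 6.66% of all genes higher and 5.07% lower.

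Of 19 genes that act on p53, 17 were tested. With H3B-8800, 1 was higher and 3 lower in PyMT-M (5.88% and 17.6%, beside 10.2% and 14.6% of all genes), and 1 was higher and 2 lower in 2208L (5.88% and 11.8%, beside 4.67% and 5.67%). Under the T11 labels, 3 were higher and 1 lower (17.6% and 5.88%, beside 6.66% and 5.07%). With so few genes these shares are a description. Hipk2, a kinase gene, was the 1 that rose in PyMT-M (log2 1.20, adjusted p = 0.0216) and the 1 that rose in 2208L (log2 1.43, adjusted p = 0.0417). In PyMT-M, Trp53, Usp7 (log2 -0.64, adjusted p = 0.00011) and Kat5 (log2 -0.70, adjusted p = 0.000636) fell. Usp7 encodes a protease that removes ubiquitin from Mdm2 and p53, and Kat5 an acetyltransferase. In 2208L the 2 that fell were the checkpoint kinase gene Chek2 (log2 -0.75, adjusted p = 0.009) and Usp7 (log2 -0.39, adjusted p = 0.0352). In AT3, edgeR called 0 of the 17, beside 0.3% of all genes, with 2 at an unadjusted p under 0.05 and 2 called lower by DESeq2. In T11, Trp53, Atr (log2 0.71, adjusted p = 0.0164) and Usp7 (log2 0.71, adjusted p = 0.000595) were higher and Rpl5 (log2 -0.77, adjusted p = 0.0409) lower under the H3B-8800 label.

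Intronic reads of these genes rose with H3B-8800 about as often as those of other genes. Of the 42 listed introns of the 9 genes, 33 had enough reads to be tested, against the spliced reads of the same gene. In PyMT-M, 17 of the 33 were higher, beside 54.7% of all introns tested, and 1 was lower, beside 5.68%. In AT3, 5 of 33 were higher, beside 19.4%, and in 2208L 6 of 33, beside 21%. In T11, 6 of 33 were lower under the H3B-8800 label, beside 19.6%. These shares, 51.5%, 15.2%, 18.2% and 18.2%, lie near those of all introns and are no result about p53 targets. Median log2 changes were 1.14 in PyMT-M (1.57 over all introns), 0.978 in AT3 (1.1), 1.59 in 2208L (1.07) and -0.432 in T11 (-0.841).

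Counts of called introns per gene are a description, since genes were not tested against each other and a call also depends on the number of reads. In PyMT-M all 5 introns of Ccng1 were higher, both of Aen, 4 of 5 tested in Sesn1 and 3 of 4 in Sesn2. Called higher were also 2 of 9 in Mdm2 and 1 of 4 in Zmat3, and none of the 4 introns listed in Cdkn1a, Btg2 and Trp53inp1. Over all introns tested, 54.7% were higher. The single listed Cdkn1a intron (chr17:29098838-29099343, mm10, 506 bases) held 7.13% to 27.8% of its reads in PyMT-M vehicle libraries and 9.72% to 20.5% with H3B-8800, with a fitted log2 change of 0.00 (SE 0.40, adjusted p = 1). Numbers of introns below run along the gene, among the introns listed.

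Ccng1 intron 5 (chr11:40751060-40751260, 201 bases) held 5.12%, 4.73%, 4.08% and 9.20% of its reads in PyMT-M vehicle libraries and 42.8%, 42.6%, 36.0% and 41.0% with H3B-8800. Relative to the spliced reads of Ccng1, its intronic reads rose by a log2 of 3.09 (SE 0.47, adjusted p = 1.49e-06, edgeR). In AT3 it held 0%, 6.94% and 3.08% with vehicle and 25.4% and 31.0% with H3B-8800 (log2 3.59, SE 0.71, adjusted p = 0.000758), where 0 of 97 reads allows up to 3.09%. The groups did not overlap in either model.

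In 2208L, Ccng1 intron 5 stood at 6.25%, 11.5% and 6.12% with vehicle and 20.2%, 32.1% and 22.1% with H3B-8800, also without overlap, and did not pass (log2 1.55, adjusted p = 0.0602). The T11 libraries ran the other way, with 36.1%, 32.5% and 28.4% under the vehicle label and 8.16%, 2.73% and 3.57% under the H3B-8800 label (log2 -2.95, SE 0.64, adjusted p = 0.00109). Intron 3 of Ccng1 followed, with log2 changes of 3.39 in PyMT-M (adjusted p = 8.83e-06), 2.65 in 2208L (adjusted p = 0.0212) and -3.51 in T11 (adjusted p = 0.0014). Its change of 2.37 in AT3 (adjusted p = 0.0348) rested on H3B-8800 replicate 2, which had 25.3% against 4.62% in the other, and was 0.27 (adjusted p = 0.962) without it. That call was lost in 6 of 10 alternatives, among them the omission of vehicle replicate 1 or 3, and the one in 2208L in 3 of 11: without vehicle replicate 1 (adjusted p = 0.0691), without vehicle replicate 3 (adjusted p = 0.0843) and without the 6 libraries (adjusted p = 0.117).

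**Figure D3:**
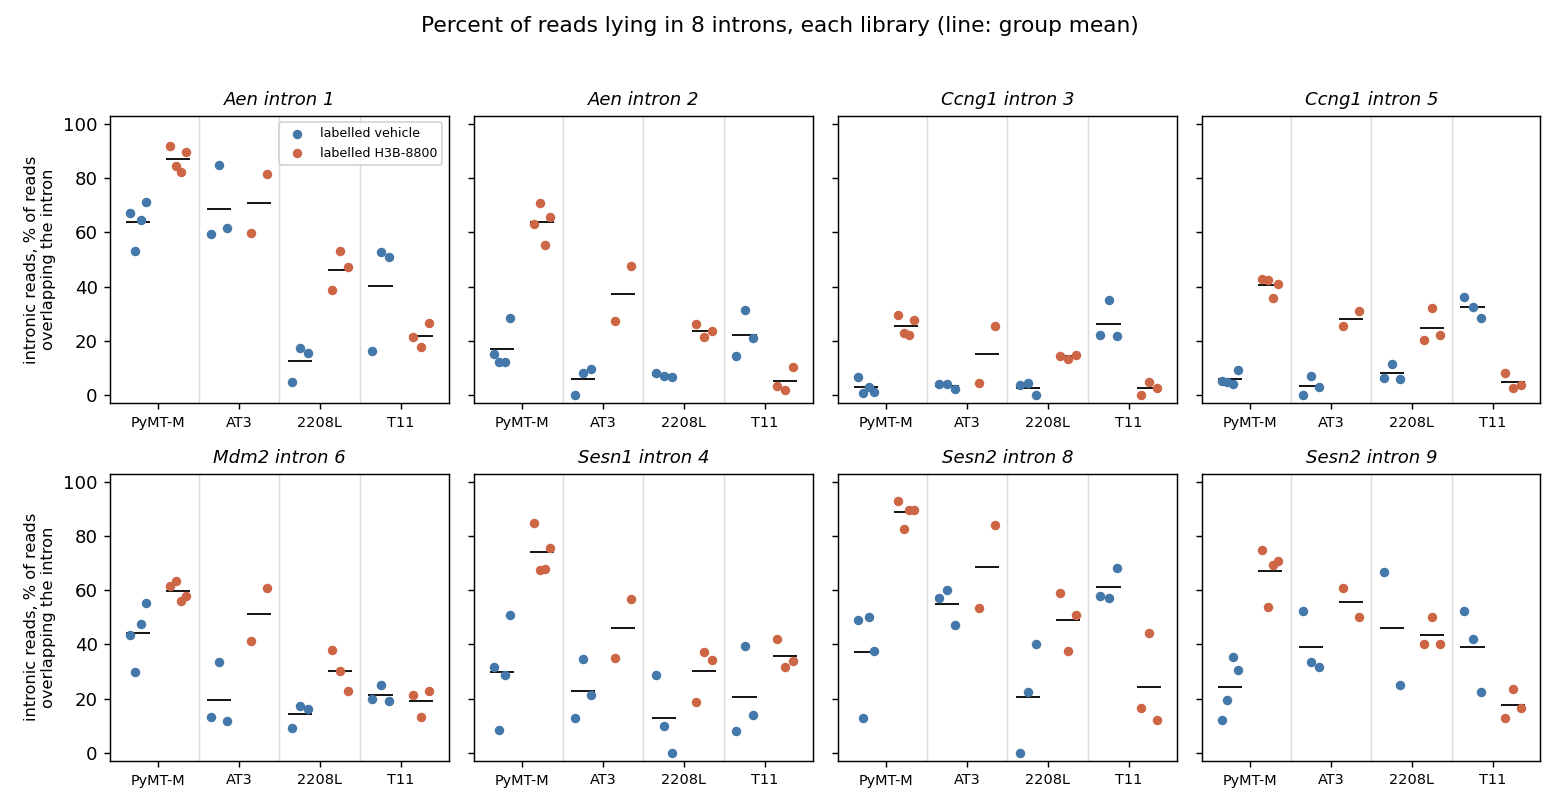
Percent of reads lying in each of the 8 introns called in at least 2 models (vertical axis), in every library, by model and treatment label, with a line at the group mean. In Ccng1 intron 5, PyMT-M rises from 4.08% to 9.20% with vehicle to 36.0% to 42.8% with H3B-8800, and the T11 labels run in the opposite direction. Vehicle replicate 1 of 2208L has no point for Sesn2 intron 9, where it had 0 reads.

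Aen intron 2 (chr7:78906044-78907143, 1100 bases) held 15.1%, 12.4%, 12.4% and 28.6% in PyMT-M vehicle libraries and 63.1%, 70.9%, 55.3% and 65.6% with H3B-8800 (log2 3.22, SE 0.54, adjusted p = 6.33e-06). In AT3 it went from 0%, 8.16% and 9.80% to 27.3% and 47.6% (log2 3.00, adjusted p = 0.00721), a call lost without H3B-8800 replicate 2 (2.27, adjusted p = 0.190) or vehicle replicate 1 (2.40, adjusted p = 0.0528). The 0% there, 0 of 31 reads, allows up to 9.68%. Aen intron 1 was already at 53.05% to 71.1% in PyMT-M vehicle libraries and reached 82.2% to 91.9% (log2 1.81, adjusted p = 0.000503), and in 2208L it went from 4.76%, 17.5% and 15.4% to 38.7%, 53.1% and 47.2% (log2 2.68, adjusted p = 0.00156).

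Sesn2 intron 8 (chr4:132494609-132496884, 2276 bases) held 49.0%, 12.8%, 50% and 37.5% in PyMT-M vehicle libraries and 92.8%, 82.5%, 89.6% and 89.6% with H3B-8800 (log2 3.30, SE 0.50, adjusted p = 1.42e-06). The spliced level of Sesn2 rose in the same libraries, so its intronic reads rose more than its spliced reads did. In AT3 the change was 2.04 (adjusted p = 0.0233), and 1.26 (adjusted p = 0.422) without H3B-8800 replicate 2, and it did not pass without vehicle replicate 1 or 3 either. In 2208L it was 2.54 (adjusted p = 0.0271), on 0 to 2 intronic reads per vehicle library, and 6 of 11 alternatives lost that call. Sesn1 intron 4 (4103 bases) rose by 2.69 in PyMT-M (adjusted p = 0.000151), from 8.33% to 51.0% with vehicle to 67.5% to 84.9% with H3B-8800. In Zmat3, intron 3 rose in PyMT-M (adjusted p = 0.00462), from 0 to 3 intronic reads per vehicle library to 25 to 62 with H3B-8800. Zmat3 intron 2 was called higher in 2208L (adjusted p = 0.0321), where the vehicle libraries had 0 of 11, 0 of 12 and 0 of 6 reads, which allows up to 27.3%, 25% and 50%, and those with H3B-8800 had 22.2%, 15.8% and 15.4%. That call was lost in 6 of 11 alternatives, among them the omission of H3B-8800 replicate 1 or of any vehicle replicate.

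Among the 9 genes, Mdm2 held the 1 intron that was lower. Mdm2 intron 2 (chr10:117702336-117705154, 2819 bases) held 16.8%, 13.8%, 12% and 56.1% in PyMT-M vehicle libraries and 3.54%, 8.70%, 8.82% and 6.67% with H3B-8800, a log2 change of -1.91 (SE 0.64, adjusted p = 0.0102). Vehicle replicate 4 stood far above the rest, and without it the change was -0.84 (adjusted p = 0.235).

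Mdm2 intron 6 was higher in PyMT-M, AT3 and 2208L, which held also for Ccng1 intron 3 and Sesn2 intron 8 and for no other intron of the 9 genes. In PyMT-M it held 43.6%, 29.7%, 47.6% and 55.4% with vehicle and 61.5%, 63.5%, 56.1% and 57.8% with H3B-8800 (log2 0.97, SE 0.40, adjusted p = 0.0336), a gap of 55.4% against 56.1% between the groups. In AT3 it held 13.2%, 33.3% and 11.6% against 41.4% and 60.9% (log2 1.66, adjusted p = 0.0265), and in 2208L 9.09%, 17.2% and 16.1% against 37.8%, 30.2% and 22.7% (log2 1.59, adjusted p = 0.0241). In T11 the log2 difference was -0.14 and did not pass. The call was lost in 8 of 13 alternatives in PyMT-M, 3 of 10 in AT3 and 5 of 11 in 2208L, with log2 changes of 0.78 to 2.28 over all of them. The libraries whose omission did so were H3B-8800 replicates 1, 2 and 4 and vehicle replicates 1 and 2 of PyMT-M, H3B-8800 replicate 2 and vehicle replicates 1 and 3 of AT3, and H3B-8800 replicate 1 and vehicle replicates 1 and 3 of 2208L.

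Mdm2 intron 6 is printed beside its neighbour, intron 5, because the neighbour was called in none of the models, and an annotated transcript keeps both. The sequences come from that GENCODE M21 transcript (mm10, minus strand), as the first 20 and the last 60 bases of each intron, with the terminal GT and AG in capitals.
Mdm2 intron 5, first bases: GTaatacttgcataaagttc
Mdm2 intron 5, last bases: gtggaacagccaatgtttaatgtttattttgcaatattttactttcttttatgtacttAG
Mdm2 intron 6, first bases: GTacatagggacattatgtg
Mdm2 intron 6, last bases: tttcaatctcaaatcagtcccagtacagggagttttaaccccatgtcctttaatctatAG
Intron 5 (chr10:117696050-117696380) has 331 bases with 41.4% G and C, and intron 6 (chr10:117695069-117695952) has 884 bases with 39.7%. Of the 22 bases before the final AG, 18 are pyrimidines in intron 5 and 15 in intron 6. Intron 5 held 18.02% to 30.7% in PyMT-M vehicle libraries and 32.1% to 41.6% with H3B-8800. In AT3 it held 12.5% to 21.98% and 31.91% to 33.8%, again without overlap. In 2208L it held 3.333% to 12.68% and 12.09% to 18.18%, which overlap. Its share was thus higher with H3B-8800 in these models too, and the missing call does not show that intron 5 was unchanged. The 2 introns were not tested against each other. The sequences and shares are descriptions of 2 introns, and no feature was tested against the change.

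**Figure D4:**
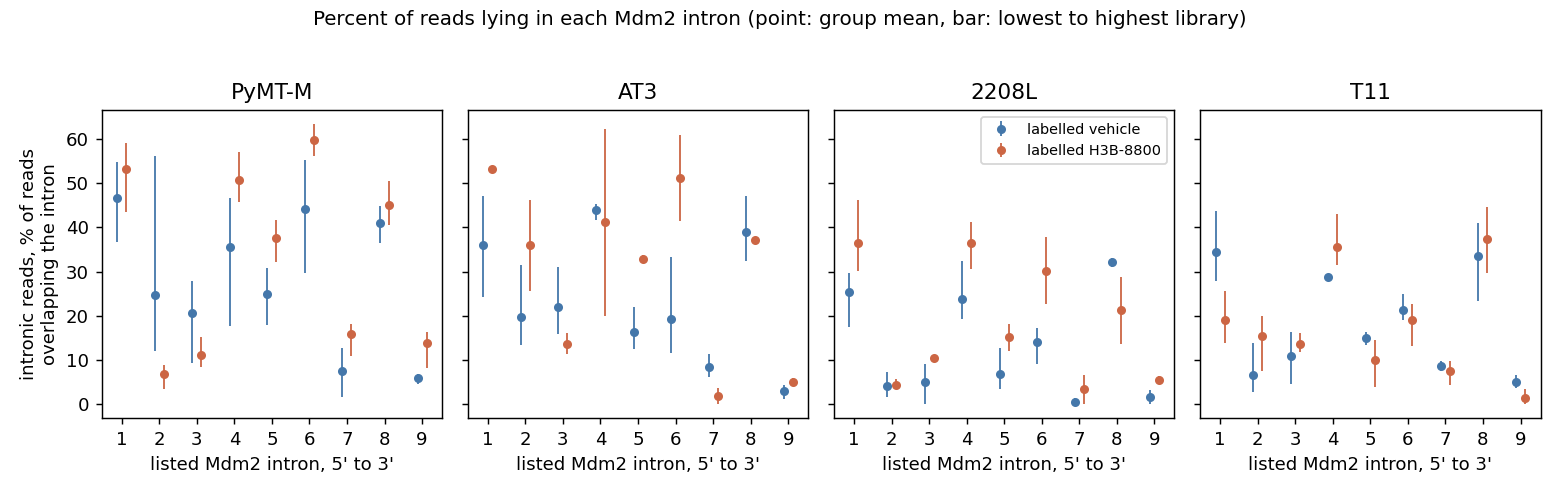
Percent of reads lying in each of the 9 listed Mdm2 introns (horizontal axis, in the order of transcription) by treatment label, in 1 panel per model, where points are group means and bars run from the lowest to the highest library. Intron 6 stands at 29.7% to 55.4% in PyMT-M with vehicle and 56.1% to 63.5% with H3B-8800, and the long bar of intron 2 with vehicle reaches 56.1%.

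The intron changes were compared between models as well. EdgeR called 0 of the 33 introns for PyMT-M minus 2208L (0.115% of all introns), for PyMT-M minus AT3 (0.00192%) and for AT3 minus 2208L (0.00192%), with 3, 3 and 5 at an unadjusted p under 0.05, and no other tool was run on these. Under the T11 labels, the change was lower than in PyMT-M for 15 of the 33 introns (51.6% of all introns), than in AT3 for 9 (36.9%) and than in 2208L for 10 (36.7%). Of the tested introns of up to 1000 bases, 7 of 14 were higher in PyMT-M, and of the longer ones 10 of 19. No share of all introns of these lengths is given beside these counts.

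Across the 25 libraries, the log2(CPM + 1) of Cdkn1a ran closest to that of Ccng1 among the 9 genes (Pearson r = 0.964), then Trp53inp1 (0.94), Sesn2 (0.931), Zmat3 (0.91) and Btg2 (0.906). The correlation of Cdkn1a with Mdm2 was 0.776, with Aen 0.622 and with Sesn1 0.398. Outside the 9, the 5 genes most like Cdkn1a were Dcxr (0.979), Slc31a2 (0.974), Mup5 (0.972), Barx2 (0.971) and Scgb2b27 (0.971), and those most like Mdm2 were Zfp68 (0.927), Setd8 (0.927), Sec14l1 (0.924), Csnk1a1 (0.922) and Clcn4-2 (0.919). The libraries fall into 4 models, and PyMT-M stands apart for many genes, so these values describe a shared pattern over models and say nothing of shared control.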

How the data were processed

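Whole-tumor polyadenylated RNA was sequenced in stranded libraries. The authors deposited, per intron, a count of intronic reads, a count taken here as overlapping reads, and an RPKM value of the intronic reads. Reads were aligned with HISAT2 2.0.4 per the submitters' processing notes, which name mm10 and hg38. For the counter and the annotation release, the sources used here give no name. Of 163337 introns, 22 spanning at most 10 bases were left out, and RPKM served only to recover a library size for 1 alternative.

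Gene counts were tested with edgeR 4.0.16 (quasi-likelihood, TMM, 8 group means over all 25 libraries, R 4.3.3) in 13001 genes with at least 1 CPM in at least 2 libraries. Intronic counts were tested with the gene's spliced reads as offset in 52042 introns with means of at least 5 intronic and 10 spliced reads. P-values were adjusted by Benjamini-Hochberg over all features, with a threshold of 0.05. All 9 genes passed the filter, but outside PyMT-M (17 libraries) Trp53inp1 reached 1 CPM in 8 and Btg2 in 12. The tests were checked on simulated data. Alternatives used DESeq2 1.42.0, limma 3.58.1, other scalings, filters and gene counts, and left out libraries. Labels do not say whether libraries of a group came from separate mice, so p-values measure the spread between these samples. Intervals for a count of 0 allow 3 counts and cover counting error only.

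The 9 genes, the pathway lists and the markers were chosen with earlier results of these data known. Named besides the 9 were Trp53, Mdm4 and up to 6 listed pathway genes with the smallest p per comparison. Hipk2 in PyMT-M was named after its value was seen. Introns of the 9 genes are named where called in at least 1 model. The single Cdkn1a intron and Mdm2 intron 5, called in none, are given besides, as are introns of Trp53. Sfn, Rprm and Cop1 were not analysed here, and Gdf15 and Trp73 were under the filter.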

Additional observations from a re-analysis of the deposited data

Results flagged for a closer look

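Among 88 groups of 4 libraries (22 of gene levels and 66 of introns, all in PyMT-M), 4 had a library far from the other 3, and chance gives about 1 in 20. Vehicle replicate 4 was that library in 3 of the 4, at 28.57% for Aen intron 2, 56.14% for Mdm2 intron 2 and 46.32% for Zmat3 intron 2. It was the highest of the 4 vehicle libraries in intronic reads over all introns too, with 20% of its overlapping reads against 10.47% to 14.63% in the others. In the other case, H3B-8800 replicate 1 stood at 37.75% for Zmat3 intron 2.

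Changes under the T11 labels differed from those of the other models, by the test of the difference itself, and T11 runs against its labels. For gene levels, T11 minus PyMT-M was -0.7901 for Mdm2, -1.314 for Sesn2, -1.801 for Zmat3, -1.1 for Aen and 1.137 for Trp53 (log2), with 12.1% of all genes lower and 14.8% higher. T11 minus 2208L was -0.7296 for Mdm2, -1.243 for Sesn1, -1.196 for Sesn2, -1.288 for Zmat3, -1.23 for Aen and 1.034 for Trp53, with 6.88% of all genes lower and 9.32% higher. T11 minus AT3 was 2.105 for Btg2, with 7.71% of all genes higher.

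For intronic reads relative to the gene, T11 minus PyMT-M was -2.055 for Sesn1 intron 4, -5.2 and -4.385 for Sesn2 introns 8 and 9, -3.434 and -5.531 for Aen introns 1 and 2, and -6.897 and -6.041 for Ccng1 introns 3 and 5, and 3.438 for Mdm2 intron 2, where 4.08% of all introns were higher. T11 minus AT3 was -1.803 for Mdm2 intron 6, -3.94 and -3.218 for Sesn2 introns 8 and 9, -1.945 and -5.312 for Aen introns 1 and 2, and -5.873 and -6.541 for Ccng1 introns 3 and 5. T11 minus 2208L was -4.434 and -3.698 for Sesn2 introns 8 and 9, -4.301 and -4.123 for Aen introns 1 and 2, and -6.162 and -4.493 for Ccng1 introns 3 and 5, and -7.101 for Zmat3 intron 2, a fitted value whose size is uncertain, since the 3 vehicle libraries of 2208L had 0 intronic reads there. Over all introns, 51.6%, 36.9% and 36.7% were lower in T11 than in PyMT-M, AT3 and 2208L in this sense, so that direction is not particular to these genes.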

How the results depend on the processing

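No value changed sign among calls. Counts below are of the 9 genes, or of the 33 tested introns. With H3B-8800, DESeq2 called 5 genes in 2208L (edgeR 3), 2 in T11 (edgeR 1) and 1 for PyMT-M minus AT3 (edgeR 0), where overlapping reads as gene count called 2. Scaling to the library size behind the RPKM, chosen after seeing the data, called 3 genes in PyMT-M, 1 in 2208L, 3 for AT3 over 2208L and 1 for AT3 over T11, for which overlapping reads also called 1. It shifted the median of all genes by -0.244 in AT3 and 0.245 in T11. Without the 6 libraries with muscle or B cell transcripts, also chosen after seeing the data, calls were 3 in PyMT-M, 0 in 2208L, 0 in T11, 2 for the mean of 3 models, 3 for AT3 over 2208L, 0 for AT3 over T11, and for introns 1 in 2208L and 3 in T11. The T11 call fell to 0 with no filter, with only that model in the fit and with upper quartile scaling. On introns, limma called 3 in AT3 (edgeR 5). The p53 target list had 7 genes higher in 2208L by DESeq2 and 2 by edgeR.

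Leaving out each replicate gave 4 to 5 genes in PyMT-M, 0 to 3 in 2208L, 0 to 0 in AT3, 0 to 2 in T11 and 3 to 5 for the mean. For vehicle tumors it gave 8 to 8 for PyMT-M over AT3, 7 to 8 over 2208L, 5 to 6 over T11, 2 to 4 for AT3 over 2208L, 2 to 5 for AT3 over T11 and 4 to 6 for 2208L over T11. For introns it gave 14 to 19 in PyMT-M, 1 to 8 in AT3, 1 to 5 in 2208L and 2 to 4 in T11. In AT3, leaving out an H3B-8800 library leaves 1, assumed to vary like the other groups: without replicate 1 there were 8 introns, without replicate 2, 1. The cause of these changes was not tested.

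Labels do not say whether equal replicate numbers pair the samples. Correlations of deviations between libraries of equal number ran from -0.395 to 0.483 over the 4 models. In PyMT-M they ran from 0.0444 to 0.483, so the check does not settle the question. With the replicate block, calls were 5 in PyMT-M, 2 in 2208L, 0 in AT3 and 0 in T11, and for introns 16, 6, 4 and 6, in the same order. The block lost Cdkn1a in 2208L (1.31, adjusted p = 0.0552). Of the settings for single genes, 2013 kept their side of the threshold, 82 lost the call and 37 gained one, and for introns 1368, 93 and 15. Depth limits Trp53inp1 and Btg2 outside PyMT-M most.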

Other observations

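Trp53 itself showed intronic reads in its intron 7 (chr11:69589251-69589572, mm10, 322 bases), which an annotated transcript keeps and which was chosen after its values were seen. It held 6.85% to 16.1% of its reads in PyMT-M vehicle libraries and 54.6% to 71.6% with H3B-8800. In AT3 it held 7.81% to 14.9% and 28.1% to 46.5%, and in 2208L, with overlapping groups, 19.1% to 41.0% and 34.5% to 45.9%. In T11 it held 31.9% to 52.9% under the vehicle label and 19.9% to 25.4% under the H3B-8800 label.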
